A study of Mus musculus with 9 samples.

Results

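The 43 genes described here encode enzymes of fatty acid oxidation, most of them mitochondrial, and proteins that regulate or accompany it. They were picked by symbol from the 54532 genes of the table, and each of the 43 symbols matched 1 row. By role they comprise 3 carnitine palmitoyltransferases, 5 long-chain acyl-CoA synthetases, 6 acyl-CoA dehydrogenases, 6 enzymes of the hydratase, dehydrogenase and thiolase steps, 3 auxiliary enzymes of unsaturated fatty acids and 3 components of the electron transfer flavoprotein system. The other members are 6 nuclear receptors and coactivators, 3 pyruvate dehydrogenase kinases, 3 enzymes of malonyl-CoA, 3 acyl-CoA thioesterases and 2 uncoupling proteins. RNA sequencing profiled right ventricular myocardium of wild-type C57BL/6 mice whose labelled stage is postnatal day 7, also the day of surgery. The VO libraries came from mice with fistula surgery to produce volume overload, the CsA libraries from mice with the same surgery that also received cyclosporin A, an inhibitor of the phosphatase calcineurin, and the Sham libraries from sham-operated mice. Each group had 3 libraries, each made from 1 µg of RNA. The labels do not give the time between surgery and harvest, the dose of cyclosporin A or whether the libraries come from separate mice. The p-values therefore speak only of how these samples spread, and that spread may be technical. The exception is Sham 2, which sex-linked transcripts given below set apart from the mice of Sham 1 and Sham 3.

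Long-chain fatty acids are activated to acyl-CoA by synthetases, carried into mitochondria by the carnitine palmitoyltransferases and shortened in repeated rounds of dehydrogenation, hydration, a further dehydrogenation and thiolysis. Malonyl-CoA blocks the entry step, and the pyruvate dehydrogenase kinases restrain glucose oxidation, so both set the balance between the fuels. The receptors of the PPAR and estrogen-related receptor families, with the PGC-1 coactivators, switch on the genes of this pathway, and the rodent heart turns from glucose and lactate to fatty acids as its main fuel in the period after birth.

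Levels are given in FPKM (fragments for each kilobase of gene length, scaled to the size of the library), as deposited by the authors, so levels of different genes are compared per length. The libraries held 12046288 to 15986747 fragments assigned to genes. Markers of ventricular cardiomyocytes were above 0 in all 9 libraries for 9 of 9 genes, while Myh1, Myh2 and Myh4 of skeletal muscle and Lep and Retn of adipocytes were at 0 in all 9. Summed markers of atrial cardiomyocytes, 5 of 7 above 0 in all 9 libraries, were at 19.8 to 34.6 FPKM in VO, 17.6 to 170.3 FPKM in CsA and 14.6 to 638 FPKM in Sham, with CsA 3, Sham 1 and Sham 3 high. Library VO 3 stood apart. Mitochondrially encoded genes took 11.01% of its fragments, against 22.2% to 26.3% in the other 8 libraries, and 17003 genes were above 0, against 19619 to 20479. Summed erythroid markers were at 2040 FPKM in VO 3 and 592 to 1040 FPKM elsewhere. Summed adipocyte markers, 3 of 10 above 0 in all 9 libraries, were at 490 FPKM in VO 3, of which Fabp4 made 456 FPKM, and at 124 to 194 FPKM elsewhere. The defining adipocyte markers Adipoq and Plin1 were at 0 in 8 and 6 of the 9 libraries, VO 3 included. Sham 3 alone had Adipoq (0.335 FPKM) and Ucp1 of the same marker list (3.30 FPKM), and had the highest Plin1 (0.166 FPKM). The part of erythroid or adipocyte markers in the members' values was not tested. Sham 2 alone had the Y-linked transcript Ddx3y (18.6 FPKM). It also had Xist at 0.00401 FPKM, against 10.2 to 66.3 FPKM in the other 8 libraries. Sham 2 thus did not come from the same mouse as Sham 1 or Sham 3, and only the Sham group held such a library. The part of sex in the members' differences was not tested. Fits without VO 3, and without the libraries high in atrial markers, were therefore made as well.

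In VO against Sham, 3 regulatory members fell and none rose. The estrogen-related receptor Esrra, the malonyl-CoA-producing enzyme Acacb and the pyruvate dehydrogenase kinase Pdk2 were at 0.525 to 0.583 times their Sham means. The test was limma on log2(FPKM + 1) over the 13477 genes that averaged 0.5 FPKM or more, with a Benjamini-Hochberg adjusted p of at most 0.05, and 41 of the 43 members entered it. Of these 41, 3 were lower and 0 higher, against 2.72% of all tested genes called lower and 2.04% called higher. At an unadjusted p under 0.05 there were 10 of 41 members, against 29.3% of all tested genes. The median log2 fold change over the 41 members was -0.13, and 0.00 over all tested genes. After rescaling without mitochondrially encoded genes the all-gene calls split into 212 higher and 541 lower, against 275 and 367 in the scaling of the authors, and 6 members were lower (Etfb, Ppard and Ucp2 besides these 3). Some cell type markers also separated VO from Sham. Summed endothelial markers, 6 of 6 above 0 in all 9 libraries, were at 207 to 220.2 FPKM in VO, 283 to 328 FPKM in CsA and 269 to 306 FPKM in Sham. Summed fibroblast markers, likewise 6 of 6, were at 784 to 862 FPKM in VO, 690 to 770 FPKM in CsA and 608 to 759 FPKM in Sham. The cardiac myosin gene Myh6 had 905 to 1205 FPKM in VO, 1511 to 2313 FPKM in CsA and 2048 to 2576 FPKM in Sham, while the sum over the 9 ventricular cardiomyocyte markers overlapped, at 9378 to 16399 FPKM in VO, 13411 to 14000 FPKM in CsA and 12737 to 16139 FPKM in Sham. The part of these markers in the members' differences was not tested. In bulk tissue, fewer cells of a type and less RNA per cell cannot be told apart.

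Esrra (ENSMUSG00000024955, chromosome 19, 6910977 to 6921813, minus strand, GRCm38 as in the table) is an orphan receptor that drives genes of oxidative metabolism. It stood at 15.5, 24.0 and 21.6 FPKM in VO 1 to 3, 28.0, 31.2 and 26.6 FPKM in CsA 1 to 3 and 36.7, 34.4 and 33.7 FPKM in Sham 1 to 3. All 3 VO libraries lay below all 3 Sham libraries, VO 1 lowest, and the CsA libraries lay between the other groups without overlapping either. The means were 20.4 ± 4.37 FPKM in VO, 28.6 ± 2.33 FPKM in CsA and 34.9 ± 1.53 FPKM in Sham (SD, n = 3 each), and the log2 fold change of VO against Sham was -0.77 ± 0.174 (SE) at a limma adjusted p of 0.0422.

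Acacb (ENSMUSG00000042010, chromosome 5, 114146535 to 114250761, plus strand) makes the malonyl-CoA pool that inhibits carnitine palmitoyltransferase 1 at the mitochondrial surface. Its level was 21.5, 22.1 and 16.5 FPKM in VO 1 to 3, 26.4, 40.2 and 25.1 FPKM in CsA 1 to 3 and 41.5, 32.7 and 40.5 FPKM in Sham 1 to 3. VO 3 was the lowest of the 9 libraries, no VO library reached a Sham library, and CsA 2 lay among the Sham values while CsA 1 and CsA 3 were closer to VO. The log2 fold change of VO against Sham was -0.90 ± 0.21 (SE) at a limma adjusted p of 0.0456. Its sister enzyme Acaca, which makes malonyl-CoA for fatty acid synthesis, was the lowest member of this role at 0.404 to 0.754 FPKM in VO, 0.628 to 0.825 FPKM in CsA and 0.682 to 0.867 FPKM in Sham, and 47.4% of its transcript 75-mers are shared with Gm5182, so its level is uncertain. Mlycd, which removes malonyl-CoA, averaged 23.2 ± 11.1 FPKM in VO, 33.2 ± 7.45 FPKM in CsA and 40.9 ± 1.46 FPKM in Sham (SD of 3 libraries). Its VO libraries, at 13.5, 20.7 and 35.4 FPKM, spread widely, yet all lay below the lowest Sham library, and it missed the test with a log2 fold change of -0.89 ± 0.298 (SE) at a limma adjusted p of 0.0915.

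Pdk2 (ENSMUSG00000038967, chromosome 11, 95026258 to 95041354, minus strand) encodes a kinase that inactivates the pyruvate dehydrogenase complex. It stood at 36.3, 47.3 and 52.6 FPKM in VO 1 to 3, 60.6, 87.4 and 60.9 FPKM in CsA 1 to 3 and 82.8, 75.2 and 92.6 FPKM in Sham 1 to 3. The VO and Sham libraries were fully separated, with CsA 2 among the Sham libraries and the other CsA libraries between the groups. Its log2 fold change was -0.88 ± 0.206 (SE) at a limma adjusted p of 0.0456. Pdk4 (ENSMUSG00000019577, chromosome 6, 5483351 to 5496309, minus strand), the family member that fasting and PPAR ligands induce, stood at 579, 415 and 548 FPKM in VO 1 to 3, 705, 404 and 415 FPKM in CsA 1 to 3 and 289.7, 627 and 344 FPKM in Sham 1 to 3. The most abundant kinase in every library, it spread over a 2.43-fold range whose extremes were CsA 1 and Sham 1, and all 3 groups overlapped, with a log2 fold change of VO against Sham of 0.36 ± 0.337 (SE) at a limma adjusted p of 0.511. Without Sham 1, Sham 3 and CsA 3 that value was -0.30, with Sham 2 (627 FPKM) as the only Sham library. Pdk1, the hypoxia-responsive kinase and the least abundant of the 3 on average, ranged from 16.0 to 22.6 FPKM in VO, 18.7 to 22.2 FPKM in CsA and 17.9 to 19.7 FPKM in Sham.

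**Figure D1:**
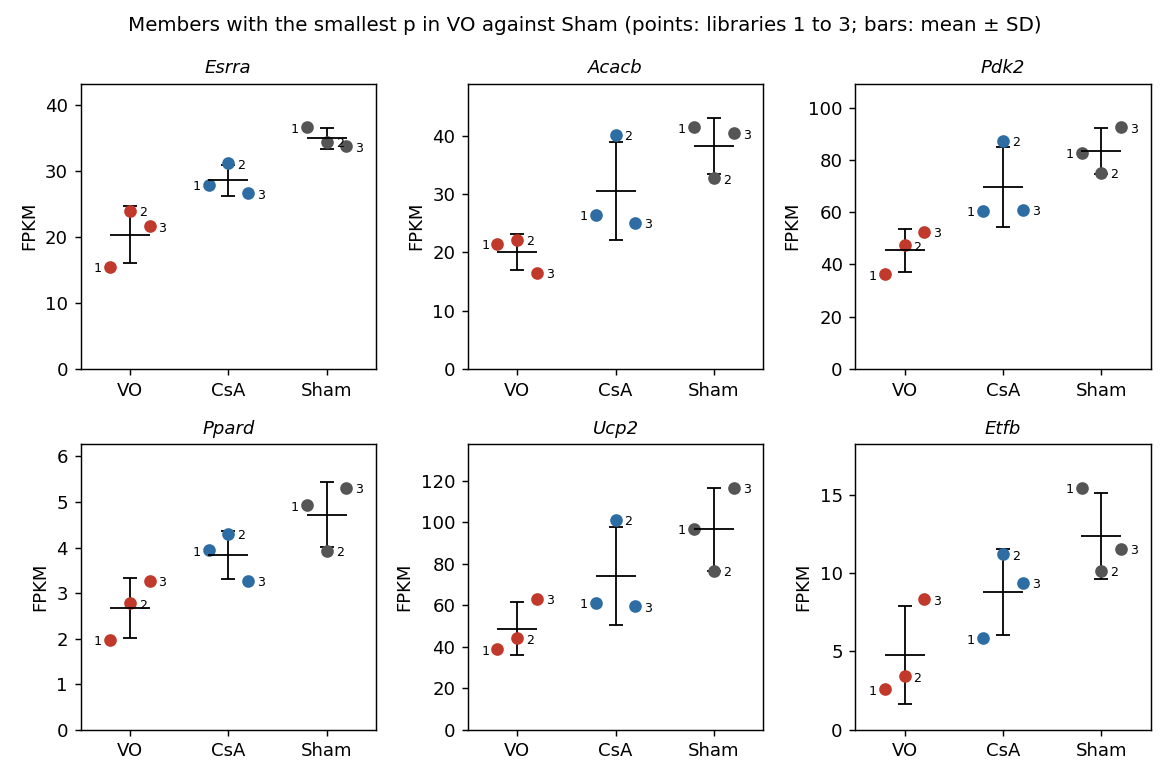
FPKM of the 6 members with the smallest p in VO against Sham, by group, with 1 numbered point for each of the 3 libraries and bars for the mean ± SD. VO points lie below all Sham points in each panel, and those of Esrra, Acacb and Pdk2 passed the test.

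These 3 calls depended on the fit. Once the GC trend of every library had been removed, the log2 fold changes were -0.74 ± 0.153 for Esrra, -0.60 ± 0.22 for Acacb and -0.57 ± 0.155 for Pdk2 (SE), with limma adjusted p of 0.0838, 0.167 and 0.108, and no member passed. With 1 library left out, 0 members passed without VO 1, CsA 1, CsA 3, Sham 1, Sham 2 or Sham 3, 1 member (Esrra) without VO 2, 4 (these 3 and Ucp2) without CsA 2 and 11 without VO 3. Of all 13477 tested genes, 0 passed after the GC correction and 0 without VO 1, CsA 1, CsA 3 or Sham 3. Without Sham 1, 0 genes were higher and 1 lower, and without Sham 2, 19 and 50. The counts were 351 higher and 442 lower without VO 2, 322 and 439 without CsA 2 and 941 and 1091 without VO 3. Over 22 alternatives the log2 fold change of Esrra stayed between -0.89 and -0.60, that of Acacb between -1.01 and -0.39 and that of Pdk2 between -0.99 and -0.57. Their adjusted p ranged from 0.0336 to 0.975, and Esrra passed in 9 and the other 2 genes in 8 of these alternatives. Without Sham 1, Sham 3 and CsA 3, which are high in atrial markers, the values were -0.75 for Esrra, -0.69 for Acacb and -0.73 for Pdk2. Sham 2 was the 1 Sham library that remained. It was the only library with Ddx3y, so group and sex cannot be told apart in this fit.

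The stretches of DNA before the transcription starts of these 3 genes are shown because the genes were the ones that fell, and that of Acadm because its window held a binding motif of the receptor family to which Esrra belongs. The windows are the 250 bases before the RefSeq start in GRCm38.p6, read 5′ to 3′ on the strand of the gene, with motif matches in capitals: chr19:6921809-6922058 (minus strand) for Esrra, chr5:114165268-114165517 (plus strand) for Acacb, chr11:95041372-95041621 (minus strand) for the upstream of 2 starts of Pdk2 and chr3:153944644-153944893 (minus strand) for Acadm. For Acacb the RefSeq start lies 18983 bases inside the gene as the table bounds it, so this window is not the start of the annotated gene.
Esrra: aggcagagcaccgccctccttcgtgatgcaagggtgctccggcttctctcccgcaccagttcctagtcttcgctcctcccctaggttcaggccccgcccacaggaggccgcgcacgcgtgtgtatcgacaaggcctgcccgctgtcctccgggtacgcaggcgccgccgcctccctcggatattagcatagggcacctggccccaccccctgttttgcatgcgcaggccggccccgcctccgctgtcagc
Acacb: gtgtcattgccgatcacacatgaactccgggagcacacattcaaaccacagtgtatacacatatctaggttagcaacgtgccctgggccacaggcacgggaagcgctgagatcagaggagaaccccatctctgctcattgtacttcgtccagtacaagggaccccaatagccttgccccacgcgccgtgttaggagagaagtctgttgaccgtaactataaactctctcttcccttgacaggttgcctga
Pdk2: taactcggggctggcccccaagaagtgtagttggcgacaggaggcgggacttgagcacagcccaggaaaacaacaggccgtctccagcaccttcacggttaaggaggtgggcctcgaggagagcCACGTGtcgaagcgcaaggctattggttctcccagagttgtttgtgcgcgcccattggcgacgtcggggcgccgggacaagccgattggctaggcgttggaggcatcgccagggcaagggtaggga
Acadm: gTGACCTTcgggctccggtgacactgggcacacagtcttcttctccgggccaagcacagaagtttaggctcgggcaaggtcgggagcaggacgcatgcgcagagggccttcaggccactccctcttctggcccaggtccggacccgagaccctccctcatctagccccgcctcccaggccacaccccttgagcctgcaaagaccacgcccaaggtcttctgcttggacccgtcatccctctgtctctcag
The capitals mark the E-box CACGTG in Pdk2, 126 to 121 bases before the start, and the reverse complement of AAGGTCA in Acadm, 249 to 243 bases before the start. RefSeq windows were found for 37 of the 43 members, 45 windows in all. AAGGTCA, the extended site that estrogen-related receptors bind, was searched on both strands and occurred in 2 of these 45 windows (4.44%; Acadm and Acsl6), against 4.08% of all 32851 windows of the same length. AGGTCANAGGTCA, the direct repeat bound by PPAR with its partner RXR, occurred in 0 of the 45 windows and in 0.0335% of all windows. At so low a rate 45 windows cannot show that the members lack it. CACGTG occurred in 1 of the 45 windows (2.22%) and in 6.02% of all windows. The windows of the members were richer in G and C, with a median of 59.6%, against 52.4% over all windows.

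Among the other receptors and coactivators no member passed the test. Ppara, the fatty acid sensor that maintains cardiac oxidation genes, stood at 7.85, 5.90 and 1.19 FPKM in VO 1 to 3, 7.02, 7.38 and 5.42 FPKM in CsA 1 to 3 and 8.13, 6.73 and 8.05 FPKM in Sham 1 to 3. VO 3, with 79 fragments, was far below every other library, and the log2 fold change was -0.75 ± 0.425 (SE) at a limma adjusted p of 0.265, or -0.14 without VO 3. Ppard, the other main cardiac receptor of the family and the least abundant member of this role, was at 1.97, 2.78 and 3.27 FPKM in VO 1 to 3, 3.94, 4.30 and 3.27 FPKM in CsA 1 to 3 and 4.93, 3.93 and 5.31 FPKM in Sham 1 to 3. Its VO libraries all lay below its Sham libraries, with a log2 fold change of -0.65 ± 0.173 (SE) at a limma adjusted p of 0.0566. Esrrg, a relative of Esrra, had 5.68 to 11.8 FPKM in VO, 6.60 to 7.78 FPKM in CsA and 7.42 to 8.14 FPKM in Sham, with VO 1 highest and VO 3 lowest of the 9 libraries.

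The coactivators Ppargc1a and Ppargc1b, which dock on these receptors and raise mitochondrial gene expression, were both lowest in VO 3. Ppargc1a stood at 23.8, 19.8 and 13.6 FPKM in VO 1 to 3, 23.3, 25.2 and 17.6 FPKM in CsA 1 to 3 and 22.5, 21.4 and 24.5 FPKM in Sham 1 to 3. Apart from VO 3 and CsA 3 its libraries lay within 19.8 to 25.2 FPKM, and the log2 fold change of VO against Sham was -0.28 ± 0.213 (SE) at a limma adjusted p of 0.415. Without VO 3 that value was -0.06, and after the GC correction -0.55. Ppargc1b stood at 4.77, 5.29 and 2.76 FPKM in VO 1 to 3, 7.65, 6.56 and 5.63 FPKM in CsA 1 to 3 and 6.44, 7.64 and 5.57 FPKM in Sham 1 to 3. All of its VO libraries were below all libraries of both other groups, although the log2 fold change of -0.54 ± 0.211 (SE) at a limma adjusted p of 0.125 missed the test. It was -0.32 without VO 3, -0.20 after the GC correction and 0.11 with that correction and VO 3 left out.

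**Figure D2:**
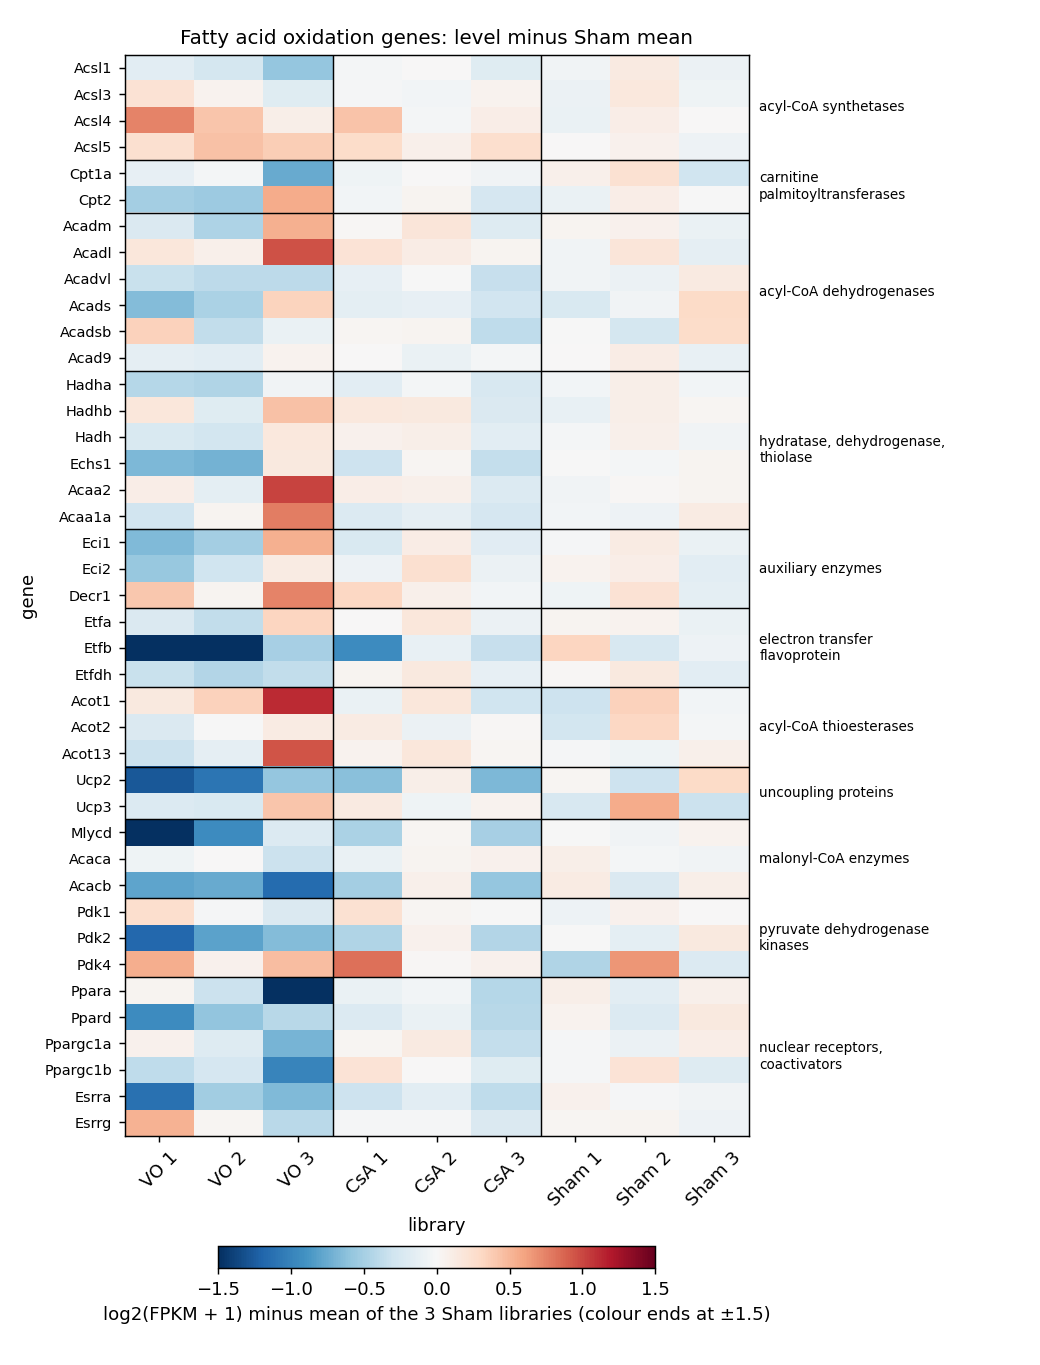
Level of each of the 41 tested members in each library, as log2(FPKM + 1) minus the mean of the 3 Sham libraries of that gene, grouped by role. Rows are genes, columns are libraries, and blue is below and red above the Sham mean. In VO 3 many enzymes of oxidation are red while the receptors and coactivators are blue.

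The entry of fatty acids into the pathway showed no call. Acsl1, the main long-chain acyl-CoA synthetase of the heart and the most abundant synthetase, had 89.4, 83.0 and 66.2 FPKM in VO 1 to 3, below all Sham libraries (93.9 to 109.8 FPKM), with a log2 fold change of -0.33 ± 0.17 (SE) at a limma adjusted p of 0.222. It was -0.21 without VO 3 and -0.50 after the GC correction. In the opposite direction, Acsl5 stood at 4.62, 5.45 and 5.14 FPKM in VO 1 to 3, 4.72, 3.99 and 4.67 FPKM in CsA 1 to 3 and 3.78, 3.95 and 3.51 FPKM in Sham 1 to 3. It was the only member with all VO libraries above all Sham libraries, and its log2 fold change was 0.35 ± 0.125 (SE) at a limma adjusted p of 0.104. Acsl4, which prefers arachidonic acid, was also above all Sham libraries in VO 1 and VO 2 but within their range in VO 3. Acsl3 spanned 2.37 to 3.46 FPKM over the 9 libraries. Acsl6, the least abundant, was at 0.109 to 0.240 FPKM in VO, 0.203 to 0.326 FPKM in CsA and 0.218 to 0.401 FPKM in Sham and was not tested.

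Cpt1a (ENSMUSG00000024900, chromosome 19, 3323301 to 3385732, plus strand), the fetal and liver form of the rate-limiting carnitine palmitoyltransferase, stood at 25.3, 27.2 and 15.9 FPKM in VO 1 to 3, 26.5, 27.8 and 26.7 FPKM in CsA 1 to 3 and 29.2, 32.5 and 22.4 FPKM in Sham 1 to 3. VO 3 was the lowest library, VO 1 and VO 2 lay within the Sham range, and the log2 fold change was -0.31 ± 0.216 (SE) at a limma adjusted p of 0.372, or -0.08 without VO 3. Cpt1b (ENSMUSG00000078937, chromosome 15, 89416405 to 89425863, minus strand), the muscle form that dominates in the adult heart, was almost absent from the table. It stood at 0.0930, 0.207 and 0 FPKM in VO 1 to 3, 0.0994, 0.192 and 0.316 FPKM in CsA 1 to 3 and 0.346, 0.235 and 0.343 FPKM in Sham 1 to 3, which is 0 to 17 fragments a library, and it was not tested. Of its exon bases, 81.4% are overlapped on the same strand by Gm44502, which was listed at 0 in all 9 libraries. Whether fragments shared by both genes were counted is unknown here, so the level of Cpt1b is uncertain and its ratio to Cpt1a is not read. Cpt2, which rebuilds acyl-CoA inside the mitochondrion, was the most abundant of the role with 87.1, 85.1 and 184 FPKM in VO 1 to 3, 104 to 128 FPKM in CsA and 116 to 134 FPKM in Sham.

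Per length, the thiolase Acaa2 and the dehydrogenase Acadl were the most abundant members by their mean over the 9 libraries. Acadl, the long-chain dehydrogenase, led the dehydrogenases with 557 to 1028 FPKM in VO, 544 to 609.7 FPKM in CsA and 482 to 602 FPKM in Sham. Acadm (ENSMUSG00000062908, chromosome 3, 153922357 to 153944632, minus strand), the medium-chain dehydrogenase whose loss causes a known human disorder of fasting, stood at 164, 138 and 277 FPKM in VO 1 to 3, 193, 217 and 167 FPKM in CsA 1 to 3 and 197, 199 and 177 FPKM in Sham 1 to 3. VO 1 and VO 2 were the lowest of all 9 libraries and VO 3 the highest, so the VO mean of 193 ± 74.1 FPKM nearly equalled the Sham mean of 191 ± 11.9 FPKM (SD, n = 3 each). The log2 fold change was -0.05 ± 0.257 (SE) at a limma adjusted p of 0.92. Without VO 3 it was -0.34 ± 0.151 (SE) at a limma adjusted p of 0.135.

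Acadvl (ENSMUSG00000018574, chromosome 11, 70010183 to 70015411, minus strand), the very-long-chain dehydrogenase of the inner membrane, stood at 131, 126 and 126 FPKM in VO 1 to 3, 152, 164 and 129 FPKM in CsA 1 to 3 and 159, 156 and 182 FPKM in Sham 1 to 3. The VO libraries differed little among themselves and all lay below the Sham libraries, and the log2 fold change of -0.37 ± 0.165 (SE) at a limma adjusted p of 0.171 missed the test. Dvl2 overlaps 42.9% of its exon bases on the opposite strand, and the use of strand in counting is unknown here, so this level is uncertain. Acads, for short chains, had 60.0, 68.0 and 119.6 FPKM in VO 1 to 3 against 80.4 to 115 FPKM in Sham, and its log2 fold change was -0.26 with VO 3, -0.56 without it and 0.17 after the GC correction, none past the test. Acadsb, of branched short chains, and Acad9, also an assembly factor of complex I, were the least abundant dehydrogenases at 10.4 to 17.7 FPKM and 4.53 to 5.64 FPKM over the 9 libraries.

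Hadha and Hadhb encode the paired subunits of the mitochondrial trifunctional protein, which carries out the last 3 steps for long chains. Hadha (ENSMUSG00000025745, chromosome 5, 30118304 to 30155162, minus strand) stood at 99.9, 97.9 and 129.8 FPKM in VO 1 to 3, 121, 132 and 114 FPKM in CsA 1 to 3 and 131, 143 and 131 FPKM in Sham 1 to 3. All VO libraries were below all Sham libraries, VO 3 only just, and the log2 fold change was -0.31 ± 0.171 (SE) at a limma adjusted p of 0.25. Hadhb had 188 to 291 FPKM in VO, 184 to 238 FPKM in CsA and 198 to 227 FPKM in Sham, and overlapped in all groups. The ratio of Hadhb to Hadha, chosen after the values were seen, was 2.40, 1.92 and 2.24 in VO 1 to 3, 1.98, 1.80 and 1.61 in CsA 1 to 3 and 1.52, 1.59 and 1.66 in Sham 1 to 3. All VO ratios were above all Sham ratios, and CsA overlapped both. In VO against Sham the log2 fold changes were 0.14 for Hadhb and -0.31 for Hadha, and after the GC correction they were nearly equal, at -0.20 and -0.24. With 3 libraries a group, an exact permutation test of VO against Sham cannot go below 0.1, and none was run since the ratio was picked from these values. The genes lie head to head on chromosome 5, with 272 bases between their RefSeq starts at 30154980 (minus strand) and 30155253 (plus strand). The 250 bases before the start of Hadhb, chr5:30155003-30155252 (plus strand) in GRCm38.p6, thus cover most of the stretch between the RefSeq starts. They held no match to the 3 motifs searched. Hadha reaches 30155162 as the table bounds it, so part of this window lies inside that gene.
Hadhb: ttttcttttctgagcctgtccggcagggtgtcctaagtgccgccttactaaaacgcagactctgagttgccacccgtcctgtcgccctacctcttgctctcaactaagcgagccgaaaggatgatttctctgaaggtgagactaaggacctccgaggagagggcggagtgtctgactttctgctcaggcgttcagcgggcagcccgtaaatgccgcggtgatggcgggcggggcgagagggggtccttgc

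Of the other enzymes of the cycle, Acaa2, the mitochondrial thiolase, had 700.0, 591 and 1326 FPKM in VO 1 to 3, 568 to 699 FPKM in CsA and 629.6 to 675 FPKM in Sham, so that VO 3 was at 2.05 times the mean of VO 1 and VO 2. Echs1, the short-chain hydratase, had the lowest fold change of the role, -0.41 ± 0.232 (SE) at a limma adjusted p of 0.259, and VO 3 again stood above the Sham range that VO 1 and VO 2 lay below. Hadh, the hydroxyacyl dehydrogenase of shorter chains, spanned 92.9 to 126 FPKM. Acaa1a, the least abundant, is the peroxisomal thiolase and shares 12.5% of its transcript 75-mers with Acaa1b.

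The auxiliary enzymes prepare unsaturated acyl chains for the cycle. Eci1, the isomerase and most abundant of them, had 102, 114 and 234 FPKM in VO 1 to 3, 137, 175 and 144 FPKM in CsA 1 to 3 and 159, 176 and 151 FPKM in Sham 1 to 3. Without VO 3 its log2 fold change against Sham was -0.58 ± 0.146 (SE) at a limma adjusted p of 0.0404, and with it -0.21 (limma adjusted p = 0.664). Eci2 followed the same order of libraries within VO, and the reductase Decr1 had 148, 115 and 189 FPKM in VO 1 to 3 against 101.1 to 130.1 FPKM in Sham.

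The electron transfer flavoprotein takes the electrons of the dehydrogenases to ubiquinone through Etfdh. Etfb (ENSMUSG00000004610, chromosome 7, 43444083 to 43457800, plus strand), its beta subunit, stood at 2.59, 3.40 and 8.32 FPKM in VO 1 to 3, 5.83, 11.2 and 9.36 FPKM in CsA 1 to 3 and 15.4, 10.1 and 11.5 FPKM in Sham 1 to 3. All VO libraries were below all Sham libraries, with VO 3 the nearest, and the log2 fold change of -1.32 ± 0.35 (SE) at a limma adjusted p of 0.056 was the largest in size of the 41 members but missed the test. Its partner subunit Etfa was at 192 to 310.2 FPKM in VO, 234 to 279 FPKM in CsA and 232 to 258 FPKM in Sham. Of the exon bases of Etfb, 58.2% are overlapped on the same strand by Gm45233, listed at 0 in all 9 libraries, so the level of Etfb, based on 48 to 262 fragments, is uncertain. Etfdh (ENSMUSG00000027809, chromosome 3, 79603788 to 79629500, minus strand) stood at 61.8, 57.7 and 60.5 FPKM in VO 1 to 3, 80.5, 86.7 and 71.9 FPKM in CsA 1 to 3 and 79.3, 86.7 and 69.9 FPKM in Sham 1 to 3. Its VO libraries formed a tight set below both other groups, with a log2 fold change of -0.38 ± 0.154 (SE) at a limma adjusted p of 0.139.

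Thioesterases release free fatty acids from acyl-CoA, and uncoupling proteins sit in the inner mitochondrial membrane. Acot13, the most abundant thioesterase, had 186, 212 and 447 FPKM in VO 1 to 3 and 222 to 245 FPKM in Sham, while Acot1, the least abundant, had 10.02, 11.6 and 20.54 FPKM in VO 1 to 3 and 7.01 to 11.7 FPKM in Sham. Acot1 and Acot2 share 15.5% and 21.2% of their transcript 75-mers with their relatives and are uncertain. Ucp2 (ENSMUSG00000033685, chromosome 7, 100493337 to 100502020, plus strand) stood at 38.9, 44.1 and 63.3 FPKM in VO 1 to 3, 61.4, 101.2 and 59.5 FPKM in CsA 1 to 3 and 97.0, 76.6 and 117 FPKM in Sham 1 to 3. It was below all Sham libraries in each VO library, averaging 48.7 ± 12.8 FPKM in VO, against 96.7 ± 20.1 FPKM in Sham (SD, n = 3 each), with a log2 fold change of -0.98 ± 0.27 (SE) at a limma adjusted p of 0.0591. Ucp3 (ENSMUSG00000032942, chromosome 7, 100472990 to 100486432, plus strand), the form of heart and skeletal muscle, stood at 21.4, 21.2 and 33.6 FPKM in VO 1 to 3, 27.5, 23.8 and 26.0 FPKM in CsA 1 to 3 and 21.1, 37.2 and 19.8 FPKM in Sham 1 to 3. Sham 2 and VO 3 were the highest, the groups overlapped, and the log2 fold change was -0.01 ± 0.259 (SE) at a limma adjusted p of 0.99, or -0.22 without VO 3.

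The 20 tested enzymes of oxidation and the 12 tested regulators are counted separately here by the place of VO 3. The regulators are the receptors, coactivators, pyruvate dehydrogenase kinases and malonyl-CoA enzymes. This pooling of roles was not planned. VO 3 was the highest of 9 libraries for 12 of the enzymes and for 0 of the regulators, and the lowest for 2 enzymes and 7 regulators. VO 3 lay above all Sham libraries for 13 enzymes and 0 regulators, and below them for 5 enzymes and 11 regulators. The other 9 tested members were the synthetases, thioesterases and uncoupling proteins. Among them VO 3 was highest for 2, lowest for 2, above all Sham libraries for 3 and below them for 3. Over all 41 members VO 3 lay above all Sham libraries for 16, against 39.6% of all tested genes, and below them for 19, against 39.5%. It was highest for 14, against 27.3% of all tested genes, and lowest for 11, against 25.8%. The median difference from the Sham mean in log2(FPKM + 1) over the enzymes was -0.26 in VO 1, -0.37 in VO 2 and 0.24 in VO 3. Over the regulators it was -0.22 in VO 1, -0.29 in VO 2 and -0.53 in VO 3. The summed FPKM of the 43 members was 3941, 3547 and 5946 in VO 1 to 3, 3751 to 4481 in CsA and 3933 to 4519 in Sham. As a share of the fragments outside mitochondrially encoded genes it was 1.79%, 1.64% and 2.09% in VO 1 to 3, 1.71% to 2.02% in CsA and 1.77% to 2.04% in Sham.

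**Figure D3:**
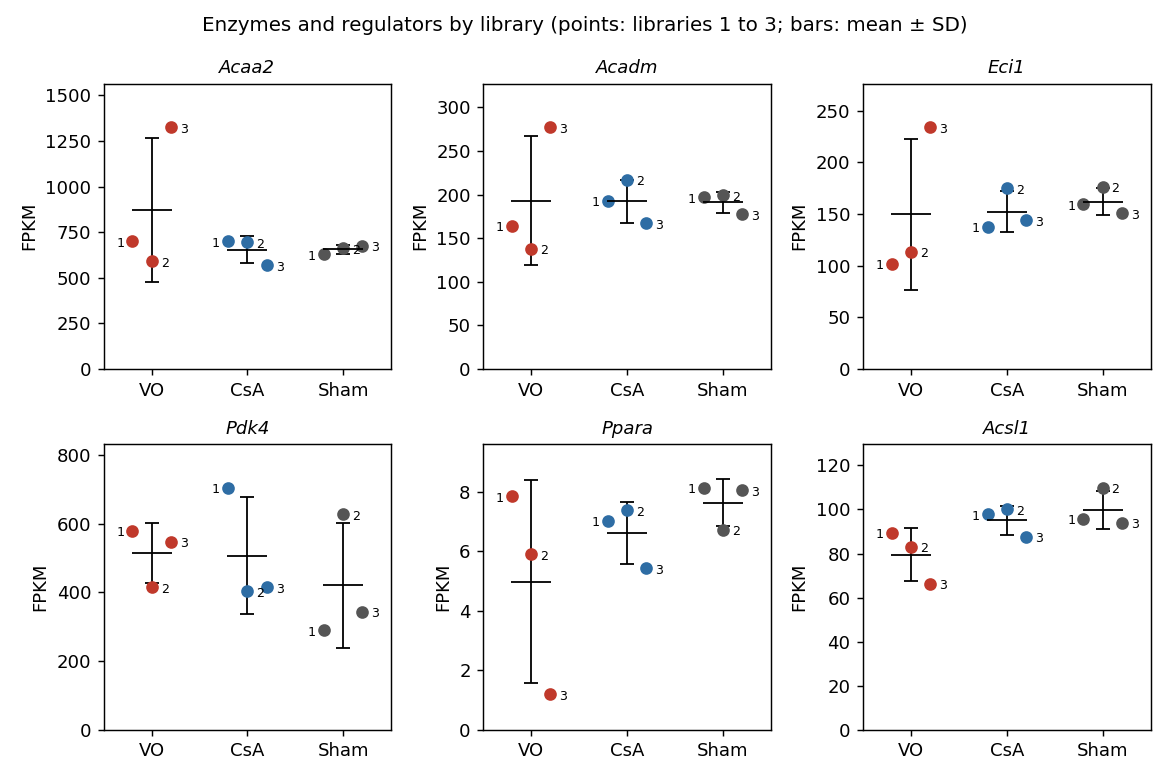
FPKM of 6 members by group, with 1 numbered point per library and bars for the mean ± SD. Acaa2, Acadm and Eci1 are highest in VO 3, Ppara and Acsl1 are lowest in VO 3, and the groups of Pdk4 overlap.

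VO 1 and VO 2 both lay below all Sham libraries for 22 of 41 members, against 27.4% of all tested genes, and both above them for 2 members (Acsl4 and Acsl5), against 27.6%. For 9 members (Cpt2, Acadm, Acads, Hadh, Echs1, Eci1, Eci2, Etfa and Acot13) VO 1 and VO 2 lay below all Sham libraries while VO 3 lay above them all, against 5.97% of all tested genes. All 3 VO libraries were below all Sham libraries for 12 members, against 17% of all tested genes, and above for 1, against 16.2%. The 12 were Acadvl, Hadha, Acsl1, Etfb, Etfdh, Ppard, Ppargc1b, Esrra, Pdk2, Mlycd, Acacb and Ucp2.

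With VO 3 left out, 11 members were lower in VO than in Sham and 0 higher, against 8.1% of all tested genes called lower and 6.98% called higher. They were the enzymes Cpt2 (-0.52), Hadha (-0.44), Echs1 (-0.70), Eci1 (-0.58) and Etfb (-1.73), the regulators Esrra (-0.82), Ppard (-0.77), Pdk2 (-0.99), Acacb (-0.77) and Mlycd (-1.24), and Ucp2 (-1.18), each as a log2 fold change with a limma adjusted p of 0.0309 to 0.0447. The median over the 41 members was then -0.22. With VO 3 left out and the GC correction, 0 members passed.

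**Figure D4:**
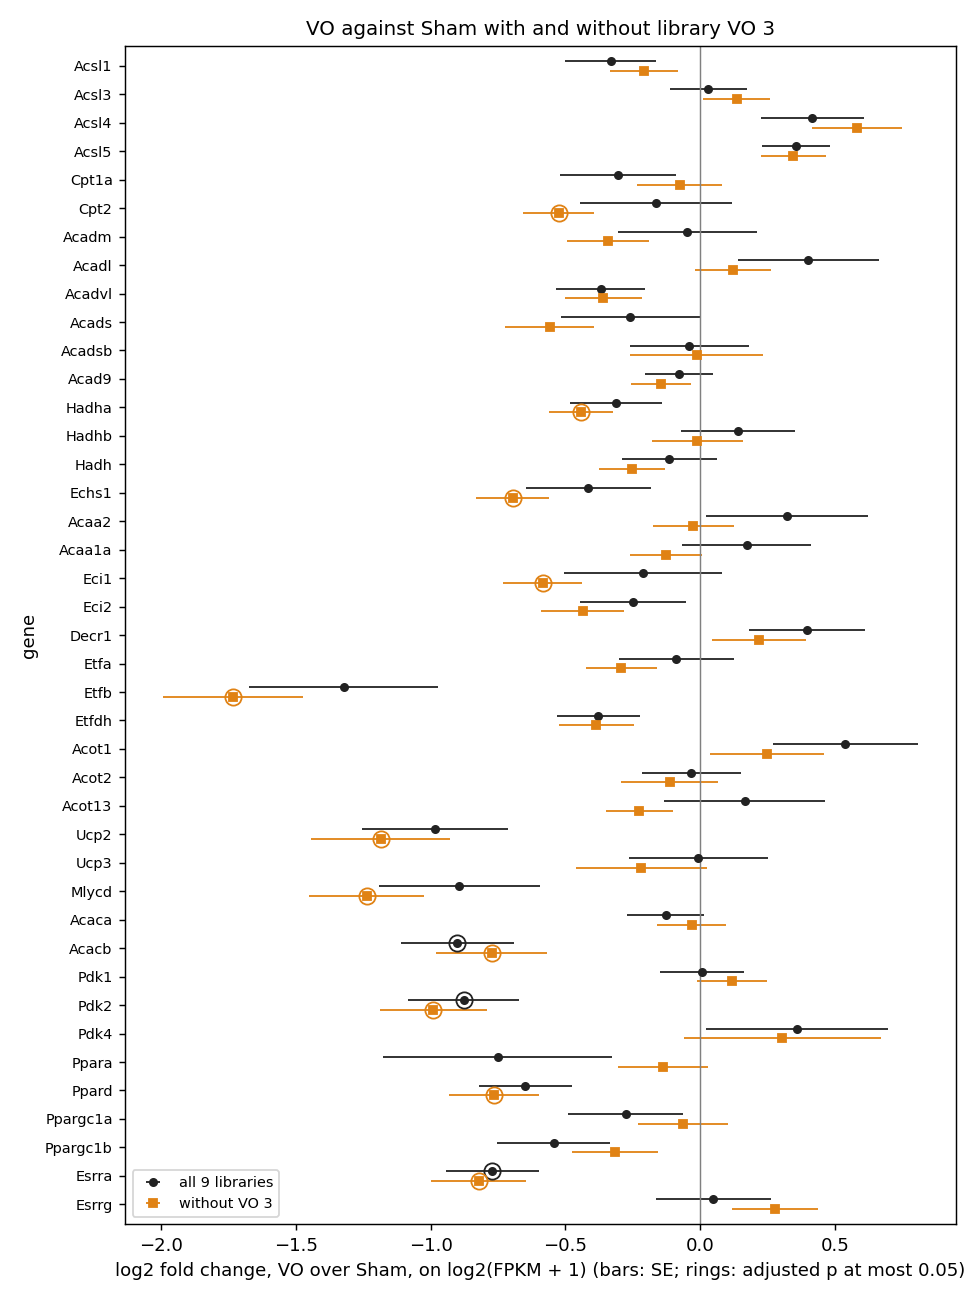
Log2 fold change of VO over Sham on log2(FPKM + 1) for the 41 tested members, with all 9 libraries (black circles) and without VO 3 (orange squares). Bars are SE and rings mark an adjusted p of at most 0.05, which 3 members have with all libraries and 11 without VO 3.

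Gene length and GC content moved with these differences. Over the 41 members, the log2 difference of VO 3 from the mean of VO 1 and VO 2 had a Spearman correlation of -0.53 with gene length, and -0.44 over all 13477 tested genes. With GC content the correlation was 0.37 over the members and 0.30 over all genes that have a value. The 14 members highest in VO 3 had a median length of 3135 bases, and the 11 lowest in VO 3 one of 6208 bases. The log2 difference of VO from Sham had a correlation of -0.55 with GC content over the members and -0.53 over all genes, and of -0.14 and -0.03 with length. These are descriptions across genes that share the same libraries, and the part of length, GC content, mitochondrial share or erythroid transcripts in the results on VO 3 was not tested.

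**Figure D5:**
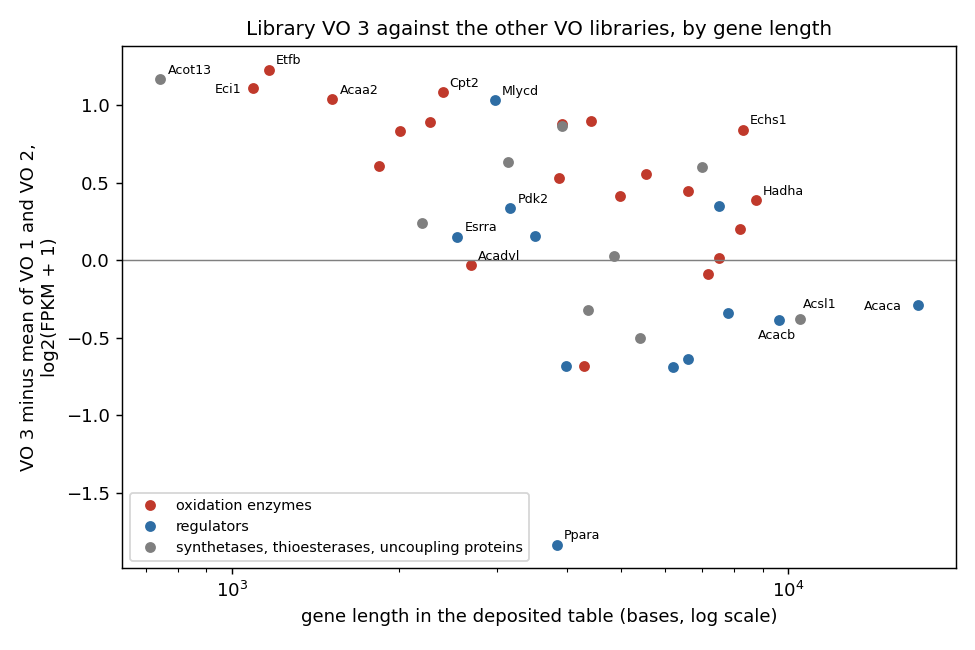
Difference of VO 3 from the mean of VO 1 and VO 2 in log2(FPKM + 1), against gene length in bases on a log axis, for the 41 tested members. Each point is 1 gene, coloured by class. The shortest gene, Acot13, and the enzymes Etfb and Eci1 have the largest positive differences, and Ppara the largest negative one.

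The comparison of CsA with VO asked which transcripts differ when the overloaded mice also received cyclosporin A. No sham-operated group received the drug, so its own effect and a changed response to overload cannot be told apart. Levels of Esrra, Acacb, Pdk2, Ppargc1b and Etfdh were above VO in all 3 CsA libraries, and these 5 had the smallest p of the members. No member passed the test, and no gene at all did (0% higher and 0% lower). With voom on recovered fragments 0 members passed as well. At an unadjusted p under 0.05 there were 8 of 41 members, against 2219 genes, or 16.5% of all tested genes. Pdk2 had a log2 fold change of 0.60 ± 0.206 (SE) at a limma adjusted p of 0.233, and Esrra one of 0.49 ± 0.174 (SE) at a limma adjusted p of 0.242. Acacb was at 0.56 ± 0.21 (SE) at a limma adjusted p of 0.252, Ppargc1b at 0.56 ± 0.211 (SE) at a limma adjusted p of 0.256 and Etfdh at 0.40 ± 0.154 (SE) at a limma adjusted p of 0.259. Without VO 3 the value of Ppargc1b was 0.33. The CsA libraries of 6 members (these 5 and Ppard) were all above the VO libraries, against 10.9% of all tested genes, and of 0 members all below, against 10.3%. For Ppard the groups were apart by the last digits only, 3.274 FPKM in CsA 3 and 3.273 FPKM in VO 3. Over the 41 members the median log2 fold change was 0.11, and 0.00 over all tested genes. With VO 3 left out, still 0 members passed, against 0% of all tested genes called higher and 0.00742% called lower.

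In CsA against Sham, no member and no gene passed (0% higher and 0% lower), with 0 members and 200 genes at an unadjusted p under 0.05, and voom also called 0 of both. The members with the smallest p were Esrra, with a log2 fold change of -0.28 ± 0.174 (SE) at a limma adjusted p of 1, Acsl5, with 0.20 ± 0.125, Acacb, with -0.34 ± 0.21, Ucp2, with -0.40 ± 0.27, and Ppard, with -0.24 ± 0.173, all at an adjusted p of 1. The CsA and Sham libraries were fully apart for 1 higher member, Acsl5, against 4.8% of all tested genes, and for 2 lower members, Esrra and Acaa1a (15.0 to 16.4 FPKM in CsA and 17.2 to 19.7 FPKM in Sham), against 4.94%. The median over the 41 members was -0.04, and 0.00 over all tested genes. CsA against VO shares its VO libraries with VO against Sham, and CsA against Sham shares its libraries with both, so the 3 comparisons are not independent. Esrra stood at -0.77 in VO against Sham, 0.49 in CsA against VO and -0.28 in CsA against Sham, and Acacb at -0.90, 0.56 and -0.34, as log2 fold changes. Absence of a call does not show that CsA equalled either group.

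Of 104 tested genes from 5 lists of the wider pathway, 3 passed when VO was set against Sham (2 lower, 1 higher), and 0 in the other comparisons. Over all tested genes, 2.72% were called lower and 2.04% higher in VO against Sham, so these counts do not set the lists apart. With 1 library left out the count was 20 when VO 3 was omitted, 7 when VO 2 was, 6 when CsA 2 was and 0 when any other library was. Of 26 other mitochondrial oxidation and carnitine genes, 1 was lower: Crat, the carnitine acetyltransferase that buffers acetyl-CoA, stood at 62.6, 72.1 and 65.1 FPKM in VO 1 to 3, 88.2, 113 and 96.03 FPKM in CsA 1 to 3 and 107, 115 and 105 FPKM in Sham 1 to 3, with a log2 fold change of -0.70 ± 0.158 (SE) at a limma adjusted p of 0.0417. Among 27 partners of the transcriptional regulators, the hypoxia-inducible factor Hif1a rose. Hif1a stood at 51.0, 40.0 and 39.9 FPKM in VO 1 to 3, 34.3, 25.3 and 29.3 FPKM in CsA 1 to 3 and 21.1, 28.0 and 24.5 FPKM in Sham 1 to 3, with a log2 fold change of 0.80 ± 0.179 (SE) at a limma adjusted p of 0.0408. In both Crat and Hif1a the VO libraries were apart from the Sham libraries, and the CsA libraries overlapped the Sham libraries. None of 17 tested genes of peroxisomal oxidation, 20 of energy sensing and malonyl-CoA and pyruvate dehydrogenase control, or 15 PPAR targets outside oxidation passed. After the GC correction neither Crat (-0.50) nor Hif1a (0.52) passed, nor did any other tested gene. Without VO 3 the 5 lists held 3 higher and 17 lower genes, against 6.98% and 8.1% of all tested genes.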

How the data were processed

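The authors deposited 1 table of FPKM values for every gene in 9 libraries, with the gene length in bases, per the file headers. The submitters' processing notes list the builds GRCm38 and mm10 and, without saying what each did, GATK 3.7, DESeq2 1.20.0, HISAT2 2.0.5, featureCounts 1.5.0-p3 and StringTie 1.3.3b. Which annotation release was used, and whether strand entered the counting, was not given in the sources used here.

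FPKM is not a count. In every library 100% of values were within 0.1 of a whole number of fragments, and totals were 12046288 to 15986747. The library size behind the FPKM was 0.956 to 1.08 times these totals. By group it was 1.04 to 1.08 in VO, 0.956 to 1.03 in CsA and 0.977 to 1.02 in Sham. No pair of replicates agreed within sampling noise (chi-square per degree of freedom 11.5 to 26.6, and 134 to 182.7 for pairs with VO 3). Floors and fragment counts cover counting error only.

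The 13477 of 54532 genes that averaged 0.5 FPKM or more were put on the log2(FPKM + 1) scale, which understates the change of low genes. The fit in limma (3.58.1; R 4.3.3) used a mean-variance trend, all 9 libraries and no covariate, two-sided, with Benjamini-Hochberg adjustment over all tested genes within each of 3 comparisons. On recovered fragments, voom called 908 genes in VO against Sham, against 275 higher and 367 lower in the log2 fit. GC content, exon overlap and shared 75-mers came from GENCODE M21, and promoter windows from RefSeq. The replicate number was used as a block only in an alternative. The GC correction removed a loess trend (span 0.3, degree 1) from each library. Alternatives were pseudocounts of 0.1 and 0.5, other filters, scalings and libraries, a block, voom and the GC correction.

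The members and the gene lists were chosen with earlier results of these data known. Given in every library were members past a test, the 5 with the smallest p in each comparison and Cpt1a, Cpt1b, Acadm, Acadvl, Hadha, Ppara, Ppargc1a, Esrra, Pdk4 and Ucp3. Other members were given by range, with the highest and lowest of each role, and each list by its genes past the test, of which 1 is not reported here. 1 listed symbol, Mmut, was not analysed here. Python 3.11.15 and matplotlib 3.10.9 drew the figures.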

Additional observations from a re-analysis of the deposited data

How the results depend on the processing

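The direction of Esrra, Acacb and Pdk2 in VO against Sham was lower in all 22 alternatives. Every VO library lay below every Sham library for these 3 genes, so leaving out libraries could not turn it. The count of 3 members past the test was not kept. It was 0 with no filter on low values, with only the VO and Sham libraries in the fit, after the GC correction, after the GC correction with VO 3 left out (chosen after seeing the data), and without Sham 1, Sham 3 and CsA 3. With the replicate number as a replicate block it was 0, and also 0 for the GC correction with replicate block, and the shared number has no pairing behind it in the labels: deviations of same-numbered libraries correlated at -0.40 to 0.24, over 0.1 in 1 of 9 pairs, and not every library correlated best with its own number. In VO against Sham, 0 of all tested genes passed with no filter, with only these groups, or after the GC correction with or without the block. Among all tested genes, the replicate block alone called 1 lower, and the GC correction with VO 3 left out called 1 higher. The count of members was 6 after rescaling without mitochondrially encoded genes and 6 with voom. Over all tested genes, these 2 fits called 212 higher and 541 lower, and 370 higher and 538 lower. Leaving out 1 library gave 0 to 11 members, and for the pathway lists 0 to 20 genes against 3. The pseudocounts, a mean of at least 1 FPKM and median-of-ratios scaling gave 3. The factors of that scaling were 0.994 to 1.01, so it nearly repeated the main fit. In CsA against VO and CsA against Sham the count was 0 under every alternative run. Of 374 log2 fold changes of named members in VO against Sham, 312 kept direction and side of the threshold, 41 lost and 11 gained the threshold, and 10 turned. Those that turned were Cpt1a at 0.054 and Ppargc1b at 0.11 (GC correction and VO 3 left out), Pdk4 at -0.30 (without Sham 1, Sham 3 and CsA 3), Ucp3 at 0.11 (GC correction, with or without the block), and with 1 library left out Acadm (-0.34 to 0.16) and Ucp3 (-0.22 to 0.27). In CsA against Sham, followed for the 5 members with the smallest p, Ppard (0.053) and Ucp2 (0.042) turned without Sham 1, Sham 3 and CsA 3. Other members there also took both signs, such as Pdk4 (-0.23 to 0.63) and Ucp3 (-0.52 to 0.32). The cause was not tested. Where 1 library of a group remained, it is assumed to vary like the other groups. That library was Sham 2, the only one with Ddx3y, so sex and group cannot be told apart there. Cpt1b (0 to 17 fragments a library) and Acsl6 (14 to 58) entered only the fit with no filter, at -0.25 and -0.17 with limma adjusted p of 0.204 and 0.287 in VO against Sham, and at these counts a small difference is not detectable.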
